A study of Drosophila melanogaster with 54 samples.

Results

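The embryos of stage 5 were compared with those of stage 4 in Drosophila melanogaster, gene by gene across the genome. The comparison covers 14 single embryos, 5 at stage 4 and 9 at stage 5, of the 54 embryos in the series. Members were chosen by the stage given in the labels and by nothing measured. The series follows whole embryos through 8 stages, and its title concerns dosage compensation of the X chromosome. Embryos were picked by hand and staged by morphology, and RNA was taken from each one separately after depletion of ribosomal RNA. The labels used here give no strain, genotype, sex or treatment, and no age beyond the stage.

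In the fly, the egg is loaded with maternal RNA, and the first nuclear divisions run almost without transcription. At the syncytial blastoderm stage and during cellularization that follows it, maternal RNAs are broken down and the embryo's own genome is switched on, a handover called the maternal-to-zygotic transition. The pioneer factor Zelda, made from maternal RNA of the gene zld, opens many of the early enhancers, and the translational repressor Smaug, product of smg, directs the decay of many maternal messages.

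Read counts assigned to genes ranged from 4410384 to 12863155 in the stage 4 embryos and from 3326516 to 5983843 in those of stage 5. Reads entered as unmapped outnumbered these counts in every embryo, at 16877065 to 43030883 at stage 4 and 17334394 to 34398888 at stage 5. Levels are given in CPM, each embryo's read counts scaled to a common total with TMM factors, which assume that most genes keep their share. They are shares of each embryo's RNA. A spike-in mix was added to the lysates per the labels' protocols, but no spike-in counts were used here, so a fall in share cannot be told apart from growth of the rest of the RNA. No pair of embryos of the same stage agreed within sampling noise. Stage 5 embryo B stood apart from the other 8 in several genes named later, and without it 4988 genes were higher and 2996 lower, against 5096 and 2992 with it. The stage 4 embryos differed among themselves. Embryos G and H had 3.66 and 5.14 CPM of sisA, an early zygotic gene on the X, against at most 0.134 CPM in embryos B, C and D.

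At any size of change more genes were higher at stage 5 than lower, and most of the transcriptome moved. Of 9783 genes tested, 8088 passed an adjusted p of 0.05 by edgeR's quasi-likelihood test, which is 82.7% of them. Higher levels made up 52.1% and lower levels 30.6% of the genes tested. Tested against a change of 2-fold, 3048 genes (31.2%) were higher and 1923 (19.7%) were lower. This order turned in the fit on the 14 embryos alone, with 1430 genes over 2-fold higher and 2098 lower among 7446 tested. These shares are the background for every list below, where a call for single genes is common.

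The balance between gains and losses depended on the level of the genes. Among the 2224 genes averaging 100 CPM or more over the 14 embryos, 588 were over 2-fold higher and 324 lower. Between 10 and 100 CPM the order turned, with 520 higher and 1355 lower among 3809 genes. Between 1 and 10 CPM, 1149 of 1910 genes were higher and 224 lower. The 1840 genes under 1 CPM, which entered the test mostly through later stages, added 791 higher and 20 lower. In that lowest class 48.9% of genes had fewer than 80% of their stage 5 reads on their own strand, against 0.764% of genes at 100 CPM and over. All the genes of at least 10 CPM together gave 1108 over 2-fold higher and 1679 over 2-fold lower, so a count of gains over all genes rests largely on low levels. The part of reads from overlapping or unannotated transcripts in those low gains was not tested.

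The log2 changes did not centre on 0. Among the 6033 genes of at least 10 CPM, the fullest bin of width 0.2 lay between 1.0 and 1.2, a rise of 2.0- to 2.3-fold, and held 595 genes. The next bins above held 308 and 125 genes, and the next below 471 and 357. Between 0.8 and 1.4 lay 1374 genes, 22.8% of the class. Beyond this peak, 366 genes rose by over 3 log2 units and 512 fell by over 3. The median of the class was 0.09. Scaling by DESeq2's size factors moved the median change of this class up by 0.13. A fit on the 14 embryos alone gave values lower by a median of 0.23 (a shift of -0.234). Changes smaller than these shifts depend on the scaling. The shifts set no upper limit, since both scalings also assume that most genes keep their share. How far larger changes, such as those at the peak, depend on the scaling was not tested.

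**Figure D1:**
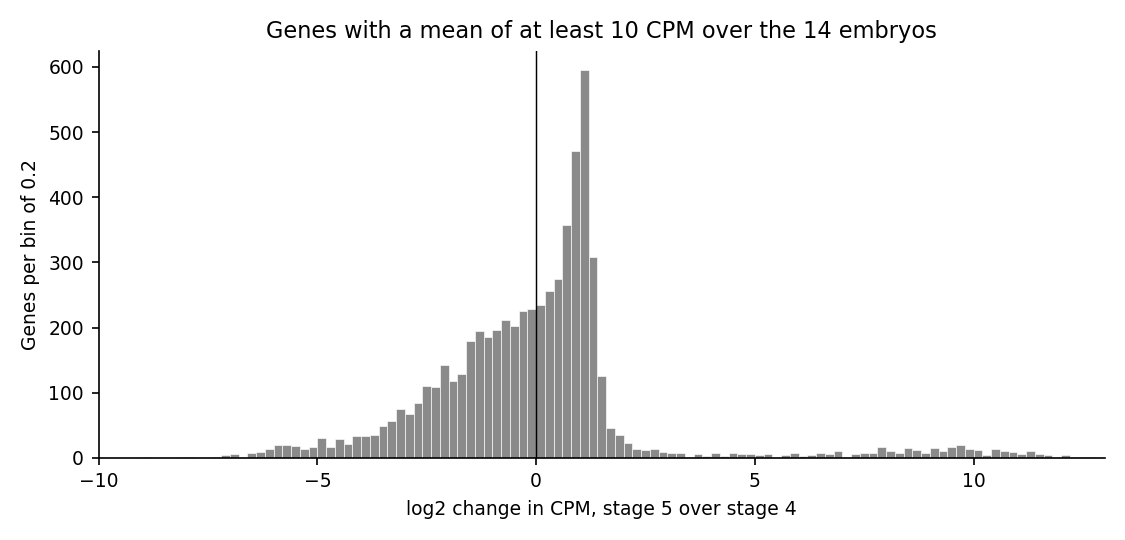
Histogram of log2 changes in CPM from stage 4 to stage 5 (x axis, bins of 0.2) against the number of genes (y axis), for the 6033 genes averaging 10 CPM or more over the 14 embryos. The tallest bar holds the 595 genes between 1.0 and 1.2, a long shoulder of falling genes lies to its left, and a thin, separate tail of gains lies between about 3 and 12.

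Several measures taken per embryo separated the stages without overlap. Of reads not entered as unmapped, those outside all genes made up 0.298% to 0.347% at stage 4 and 3.51% to 6.42% at stage 5. The mean rose from 0.328% ± 0.0195 (SD, n = 5) to 4.87% ± 0.998 (SD, n = 9; exact two-sided permutation test, p = 0.0005, the smallest that 5 embryos against 9 can give). At a common depth of 3326516 counts, 7650 ± 55.5 genes had a read at stage 4 and 10190 ± 342 at stage 5 (SD, n = 5 and 9; the same exact permutation test, p = 0.0005). Mitochondrially encoded reads made up 2.44% ± 0.352 and 4.55% ± 0.484 of gene counts (SD, n = 5 and 9; exact permutation test, p = 0.0005). The 10 most abundant genes of each embryo took 4.74% to 5.40% of counts at stage 4 and 7.23% to 8.18% at stage 5.

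Genes that were nearly silent at stage 4 gave a trace of the RNA there and a measurable share at stage 5. The 9488 genes with at most 3 reads over all 5 stage 4 embryos are silent by that choice, so their share is given as a description with no test. They made up 0.0081% to 0.0102% of counts at stage 4 and 0.948% to 1.24% at stage 5. The share was 1.6% to 1.83% at stage 6 and 7.07% to 8.81% at stage 15, so stage 5 held only the first part of the RNA that these genes later contributed.

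A list of patterning genes was set aside. Outside it, the 12 largest fitted rises and the highest stage 5 levels among genes near 0 at stage 4 were of several kinds. Cell surface proteins, a kinase, a transporter and Sox factors were among them. Pka-C3 (FBgn0000489, 3L 15925805 to 15954797, minus strand), which encodes a catalytic subunit of protein kinase A, had 1 read at stage 4, in embryo B (0.0663 CPM), and none in the other 4 embryos. At stage 5 it ranged from 206 to 319 CPM with a median of 249.5. Every stage 5 embryo was thus far above every stage 4 embryo, and the same held for all 12 of the largest rises. The 12 were chosen by their rise, so this lack of overlap describes them and is no test. By stage 15 the mean of Pka-C3 was back at 1.05 CPM.

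The immunoglobulin-family surface protein gene tutl (FBgn0010473, 2L 4283148 to 4323781, plus strand) had 2 reads over the stage 4 embryos and then 322 to 414 CPM at stage 5, with a median of 347. Its stage 5 embryos were close to each other, with 357 ± 30.1 CPM (SD, n = 9). Blimp-1 (FBgn0035625, 3L 5630983 to 5652094, plus strand), a zinc finger repressor, had 1 read over the stage 4 embryos and then 158 to 263 CPM at stage 5, median 215. Dichaete, gene symbol D (FBgn0000411, 3L 14175610 to 14178620, minus strand), and SoxN (2L 8825645 to 8829670) both encode Sox-family transcription factors. D had 3 reads over the stage 4 embryos and then 280 to 585 CPM at stage 5, median 363. SoxN had 2 reads and then 129 to 245 CPM, median 188. Embryo J was highest for D and lowest for SoxN, so the 2 Sox genes did not order the embryos alike.

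Of surface and junction proteins, Cad74A (3L 17367753 to 17379530), a cadherin, had no read in any stage 4 embryo. It reached 55.5 to 119 CPM at stage 5, median 92.1. Against a floor of 3 reads over the 5 stage 4 embryos, the stage 5 mean was at least 1260-fold higher. Inx3 (FBgn0265274, 3R 28853606 to 28859497, minus strand), a gap junction innexin, had 0.332, 0.267, 0, 0.505 and 0 CPM in stage 4 embryos B, C, D, G and H. Its stage 5 levels ran from 824 to 1289 CPM with a median of 942, a rise of 11.81 ± 0.18 log2 units (SE, adjusted p = 2.09e-47). The highest value, in embryo I, stood apart from the other 8, which did not exceed 1051 CPM.

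The scavenger receptor gene Sr-CII had 0.0997 ± 0.0698 CPM at stage 4 and 324.5 ± 26.4 at stage 5 (SD, n = 5 and 9). The ABC transporter gene Mdr49 rose from 0.165 ± 0.139 to 702 ± 108 CPM, by 11.76 ± 0.37 (SE, adjusted p = 2.36e-33). For bnb (FBgn0001090, X 18794246 to 18797687, minus strand) the 5 stage 4 values were 0.730, 0.401, 0.115, 0.252 and 0.367 CPM, and stage 5 ran from 827 to 2353 with a median of 1442. All 9 embryos were high, but 3 of them, G, H and J, lay between 827 and 838 CPM and the other 6 at 1408 CPM or more. The remaining genes of the 12 were kmr, the F-box gene Fbxl7 and CG43725, with at least 487, 117 and 163.5 CPM in every stage 5 embryo against means of at most 0.221 CPM at stage 4. SoxN, ASPP and Traf4 are named for their stage 5 level alone and are not among the 12. ASPP reached 204 ± 36.8 CPM (SD, n = 9) from 3 reads, and Traf4, an adaptor of the TNF receptor pathway, 192 ± 47.6 CPM from 2 reads.

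**Figure D2:**
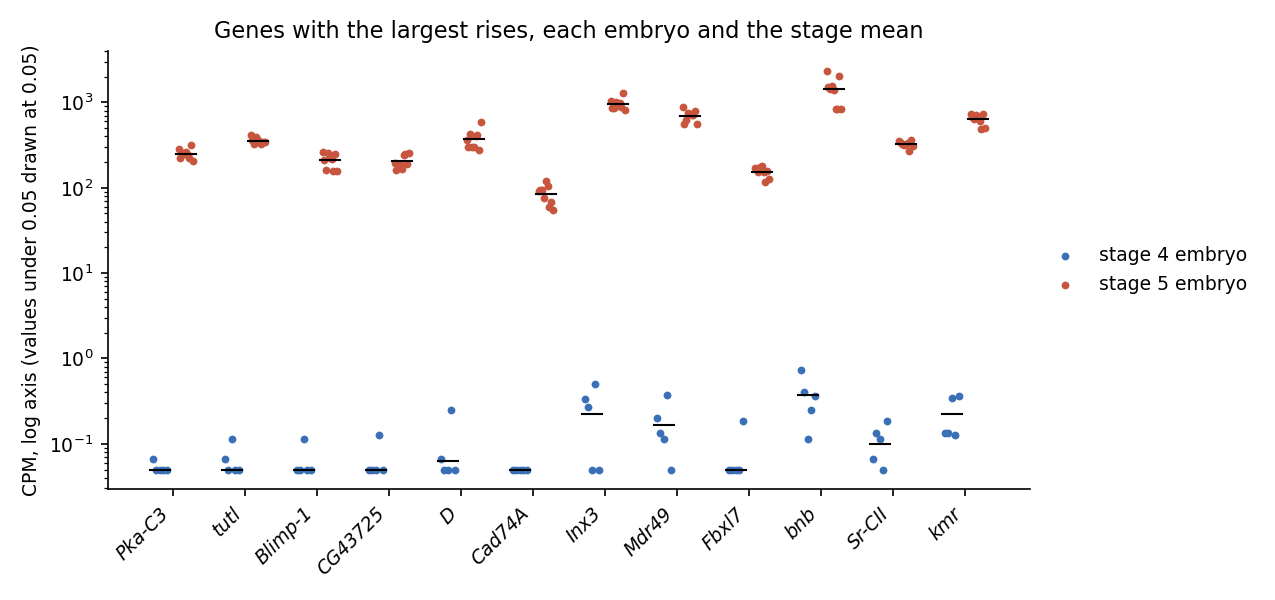
CPM (log axis, values under 0.05 drawn at 0.05) of the 12 genes with the largest fitted rises outside the listed patterning genes. Each point is 1 embryo, stage 4 left and stage 5 right of each gene, with a line at the stage mean. No gene reaches 1 CPM in any stage 4 embryo or falls under 55 CPM in any stage 5 embryo. At stage 5 bnb scatters widely.

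Genes that already had RNA at stage 4, of an origin not tested here, also gained RNA share. The 3 given here were picked after their values were seen. The gene wech (FBgn0259745, 2R 7478853 to 7489823, minus strand), whose protein links integrins to the cytoskeleton, had 802, 813, 835, 962 and 814 CPM in stage 4 embryos B, C, D, G and H. At stage 5 it ran from 7488 to 10060 CPM with a median of 8309, a rise of 3.32 ± 0.12 (SE, adjusted p = 6.61e-31). The adhesion protein gene Nrt, Neurotactin (FBgn0004108, 3L 16766072 to 16777465), rose from 72.8 ± 5.91 to 4180 ± 482 CPM (SD, n = 5 and 9), by 5.84 ± 0.12 (SE, adjusted p = 4.56e-41). The nuclear envelope gene kuk, kugelkern (3R 17080244 to 17084781), which shapes the elongating blastoderm nuclei, rose from 531.5 ± 19.6 to 3748 ± 162 CPM, by 2.82 ± 0.14 (SE, adjusted p = 4.03e-25). In all 3 genes the lowest stage 5 embryo exceeded the highest stage 4 embryo, and all 3 were lower again by stage 8, at 1991, 1914 and 2378 CPM.

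With so many gains, a gene set of 164 had at most 3 reads at stage 4 and a mean of at least 10 CPM at stage 5. It is chosen on these values, so its stage 4 and stage 5 levels are no test. Its median level was 0.0267 CPM in stage 4, 23.0 and 32.1 CPM in stages 5 and 6, 35.3 in stage 8 and 16.4 in stage 15. At stage 6, 138 of the 164 genes still had at least 10 CPM and 90 were above their stage 5 mean. At stage 15, 93 had at least 10 CPM and 14 were under 1 CPM. Of the 164, 2 genes fell more than 8-fold from stage 5 to stage 6, CG43725 and Z600. CG43725 (2L 11075513 to 11075962), a short gene of no named role, went from 163.5 to 254.5 CPM at stage 5 to a mean of 3.93 at stage 6 (log2 change -5.72 ± 0.26 SE, adjusted p = 2.53e-19). Z600 (3L 15509061 to 15509513), an inhibitor of mitotic entry chosen here after its values were seen, had 68.1 to 239 CPM at stage 5 and a mean of 8.03 at stage 6 (-3.77 ± 0.25 SE, adjusted p = 1.48e-18). Its highest value came from embryo B, and the other 8 did not exceed 131 CPM.

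**Figure D3:**
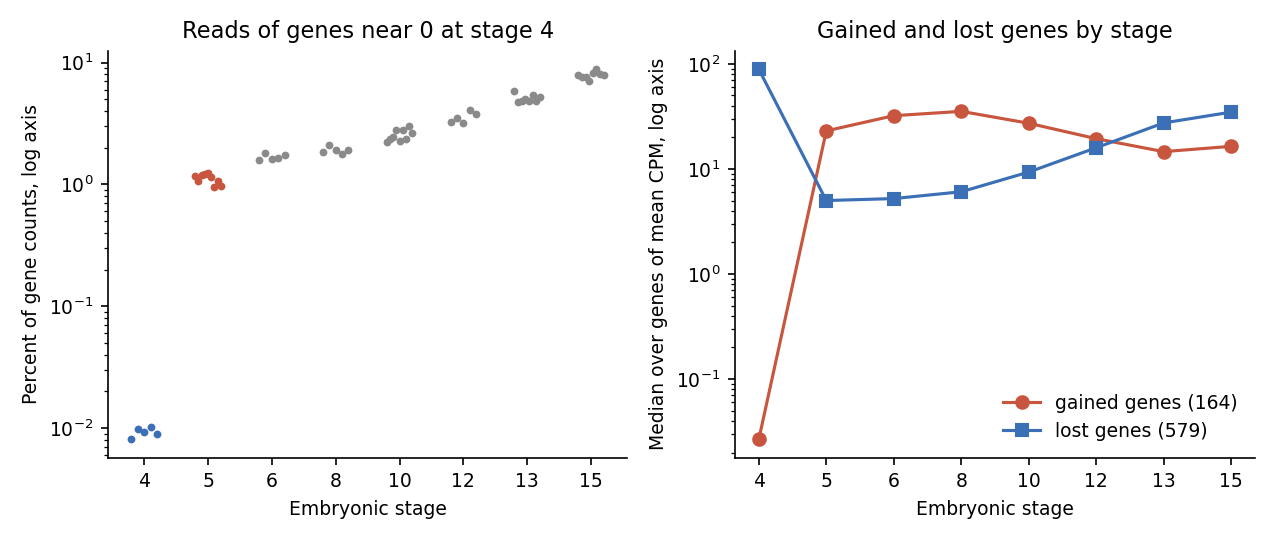
Left, percent of gene counts (log axis) from the 9488 genes with at most 3 reads over the stage 4 embryos, one point per embryo at each of the 8 stages; right, median over genes of mean CPM (log axis) by stage for the 164 gained genes and the 579 lost genes. The share is about 0.01% at stage 4, about 1% at stage 5 and 7.07% to 8.81% at stage 15, while the gained genes peak at stage 8 with 35.3 CPM and the lost genes lie at 5.00 CPM at stage 5 and 34.7 at stage 15.

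The gained genes differed in make-up from the rest of the transcriptome, by description alone. Of the 164, 163 had an annotation, and their median span was 5002 bp against 2780 bp for all genes tested. Noncoding RNAs made up 12.9% of them and 3.94% of all genes tested, and intronless genes 14.1% and 12.5%. On the X lay 13 of them, 7.98%, against 16.6% of all genes tested. Among genes of at least 10 CPM, the X held 13.4% of those over 2-fold higher, 20.6% of those over 2-fold lower and 17.5% of those that were neither.

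The X-linked gains also split the stage 5 embryos. Summed over the 13 X-linked members of the gained set, embryos G, H and J had 392, 364 and 368 CPM and the other 6 had 585 to 665. The 151 other members summed to 8083, 6812 and 7028 CPM in G, H and J and to 7967 to 8985 in the rest. Over the 50 X-linked genes that rose more than 8-fold to at least 10 CPM, the median gene in G, H and J stood at 68.0%, 58.8% and 61.3% of its median over the 9 embryos, and no other embryo was under 100%. For the 393 such genes on the large autosomes the 9 values ran from 89.0% to 104%. The labels used here give no sex, and its part in this split was not tested.

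Noncoding RNAs among the gains were picked after their values were seen. The heat shock RNA lncRNA:Hsromega, which organises nuclear bodies of RNA-binding proteins, rose from 1.37 ± 0.356 to 597.5 ± 258 CPM (SD, n = 5 and 9), by 8.76 ± 0.50 (SE, adjusted p = 2.62e-22). Stage 5 embryo F had 1189 CPM and the other 8 had 299 to 688. The bithorax complex RNAs lncRNA:bxd and lncRNA:iab4 had 1 read each at stage 4, and stage 5 means of 77.1 ± 12.8 and 69.7 ± 13.3 CPM (SD, n = 9). The RNA snRNA:7SKa, which holds the elongation kinase P-TEFb inactive, rose from 1346 ± 129 to 3175 ± 126 CPM, by 1.24 ± 0.08 (SE, adjusted p = 4.56e-20), close to the fullest bin of all changes.

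All 9 factors listed for genome activation rose, where 52.1% of all genes were higher. The list median was 1.2 against 0.72 for all genes tested. It lay at the edge of the fullest bin of genes of at least 10 CPM, 1.0 to 1.2. The gene zld itself (FBgn0259789, X 19766465 to 19783548, minus strand) had 624, 629, 678, 775 and 608 CPM in the stage 4 embryos and 2030 to 2681 at stage 5, median 2397. It rose by 1.82 ± 0.13 (SE, adjusted p = 2.59e-18), with no overlap between stages. Of the GAGA-binding factors, Trl rose by 2.18 ± 0.12 (SE, adjusted p = 2.41e-23) from 6.42 ± 0.737 to 29.1 ± 4.04 CPM, and psq by 1.43 ± 0.08 (SE, adjusted p = 3.4e-23). The pioneer factor grh, grainy head (2R 17801132 to 17842820), had at most 1.01 CPM in the stage 4 embryos and 365 to 522 at stage 5, median 444. Its mean stayed between 304 and 533 CPM through stage 15.

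The insulator and early blastoderm proteins had a list median of 7.0, with 10 of 11 tested members higher and none lower. Among all genes tested 52.1% were higher. Elba1 and Elba3, subunits of a boundary-binding complex found in early embryos, are neighbours on 2L, at 4683052 to 4684461 and 4687511 to 4688956. Elba1 had 0.133, 0, 0, 0.252 and 2.20 CPM in stage 4 embryos B, C, D, G and H and 629 to 878 at stage 5, median 732. Elba3 was also highest in embryo H at stage 4, with 2.75 CPM there and at most 0.252 in the rest, and 381 to 608 CPM at stage 5. Without embryo H the rises of 10.88 and 10.00 became 12.51 and 11.87. By stage 6 both were lower, at 88.9 and 17.9 CPM, changes of -3.07 ± 0.29 and -4.76 ± 0.29 from stage 5 (SE, adjusted p = 3.92e-13 and 3.84e-20). SNCF, on 3L, had 22 reads over the stage 4 embryos and then 447.5 to 680 CPM at stage 5. For nullo, an actin regulator of cellularization, the levels were 2.07 ± 3.22 and 4.19 ± 2.19 CPM and no change was called (1.16 ± 0.60 SE, adjusted p = 0.0711). Embryo H decided this, since without it nullo rose by 2.53 (adjusted p = 0.000401).

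Lists of the gene expression machinery mostly rose, where 52.1% of all genes tested were higher, and their medians lay at the common peak. Of 13 genes for RNA polymerase II and initiation, 9 rose and 3 fell (list median 1.11). Taf2 and Taf6, subunits of TFIID, rose by 1.29 ± 0.06 and 1.32 ± 0.075 (SE, adjusted p under the threshold for both), while CycH, a cyclin of the TFIIH kinase, fell from 46.9 ± 2.24 to 11.5 ± 3.17 CPM, by 2.0 on the log2 scale (adjusted p = 6.97e-21). The TATA-binding protein gene Tbp fell by 0.81 (SE 0.08, adjusted p = 1.73e-13), but 71.5% of its strand-separated stage 5 reads were on its own strand. Of 10 pausing and elongation genes 8 rose and 2 fell (list median 1.15). The 2 that fell, Nelf-A and Nelf-E, encode subunits of the pausing factor NELF. The genes of its other subunits on the list, NELF-B and TH1, were among the 8 that rose. The call for Nelf-A, a change of -0.26 ± 0.07 (SE), was lost with DESeq2's size factors (-0.13). The P-TEFb cyclin CycT rose by 1.28 ± 0.07 and the elongation factor Spt5 by 1.27 ± 0.06 (SE, adjusted p = 5.97e-23 and 4.84e-25). Of 16 splicing factors 15 rose and none fell (list median 1.07), led by the SR protein B52 at 1.79 ± 0.06 (SE, adjusted p = 1.13e-32). All 85 cytosolic ribosomal protein genes tested rose (list median 1.05).

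Chromatin genes followed the same pattern with a few far outside it. Of 23 chromatin and lamina genes 19 rose and 4 fell (list median 1.12), where 52.1% of all genes tested were higher. The high mobility group gene HmgZ had 6 reads over the stage 4 embryos and then 67.8 ± 11.3 CPM at stage 5 (SD, n = 9). The Polycomb group gene ph-p (X 2126210 to 2138371) rose by 6.30 ± 0.22 (SE, adjusted p = 1.11e-31), from 1.74 to 4.71 CPM at stage 4 to 129 to 330 at stage 5, again with the lowest values in embryos G, H and J. The insulator protein gene CTCF fell by 2.86 (SE 0.11, adjusted p = 8.02e-30) from 110 ± 5.66 to 15.0 ± 2.63 CPM. The remodelling factor gene Acf fell by 1.63 (SE 0.10, adjusted p = 3.5e-20). Among histone genes 7 of 116 were tested, since the other 109, mostly near-identical copies whose reads cannot be placed, had no counted read in the 14 embryos. The embryonic linker histone gene BigH1 fell from 250 ± 18.2 to 35.2 ± 9.44 CPM, by 2.83 (SE 0.26, adjusted p = 2.61e-14). The replacement histone genes His3.3A and His3.3B rose by 1.48 ± 0.08 and 1.27 ± 0.08 (SE, adjusted p = 1.14e-22 and 9.11e-21).

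Genes that build the epithelium rose. Of 15 junction and polarity genes 14 rose and 1 fell (list median 1.5), where 52.1% of all genes tested were higher. E-cadherin, the gene shg (2R 21049654 to 21057197), had 298, 312, 314, 349 and 290 CPM at stage 4 and 1507 to 2096 at stage 5, median 1838, a rise of 2.51 ± 0.07 (SE, adjusted p = 7.18e-37). The scaffold gene sdt of the Crumbs complex (X 8178549 to 8240474) rose by 4.54 ± 0.18 (SE, adjusted p = 9.13e-29), from 31.8 ± 6.87 to 738 ± 238 CPM. Its stage 5 embryos G, H and J had 460, 405 and 416 CPM, and the others 810 to 961. The surface receptor gene Toll-6 had 5 reads over the stage 4 embryos and then 12.8 ± 6.40 CPM at stage 5, with 28.0 in embryo B and at most 16.3 in the rest. It was at 446.5 CPM at stage 6, a further rise of 5.08 ± 0.18 (SE, adjusted p = 1.34e-29), so stage 5 caught its beginning. The spectrin gene kst was the single junction member to fall, by 2.19 (SE 0.14, adjusted p = 5.99e-21).

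Of 17 genes of the furrow cytoskeleton 15 rose and 2 fell (list median 1.17), where 52.1% of all genes tested were higher. This median lay within the fullest bin of genes of at least 10 CPM, 1.0 to 1.2. The tubulin gene alphaTub84D rose by 1.87 ± 0.09 and the profilin gene chic by 1.45 ± 0.07 (SE, adjusted p under the threshold for both). Moe, which ties actin to the membrane, fell by 2.55 (SE 0.14, adjusted p = 1.38e-22) from 377 ± 28.2 to 64.6 ± 14.3 CPM. RhoGEF2, an activator of Rho1, fell by 1.68 (SE 0.06, adjusted p = 2.49e-30).

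The growth factor signalling list had a median of 3.61, where 14 of 17 genes rose and 2 fell. Among all genes tested 52.1% were higher and 30.6% lower. The receptor gene Egfr (2R 21522420 to 21559977) had 0.332, 0.401, 0.230, 0.505 and 0.551 CPM in the 5 stage 4 embryos and 577 to 789 at stage 5, median 700.4. It rose by 10.75 ± 0.14 (SE, adjusted p = 3.59e-50), with a mean between 518 and 765 CPM at every later stage. The fibroblast growth factor genes ths and pyr, their receptor gene htl and its adaptor stumps were all below 0.34 CPM at stage 4 on average. At stage 5 their means were 79.8 ± 28.3, 38 ± 10.7, 111 ± 26.3 and 128 ± 37.3 CPM (SD, n = 9), where pyr, htl and stumps were added after their values were seen. The JNK phosphatase gene puc fell by 1.61 (SE 0.10), and kay, a Fos protein gene, had 10.8 ± 1.74 and 8.35 ± 2.28 CPM (-0.36, adjusted p = 0.0273). The call for kay was lost with DESeq2's size factors (-0.23) and test (-0.23) and, at changes of -0.32 to -0.29, without stage 4 embryo C or stage 5 embryo B, C or J.

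Cell death genes rose in 8 of 9 cases, against 52.1% of all genes tested. Their median was 1.83, or 1.28 with the gene that had no stage 4 read set at its bound. The reaper gene rpr had 2 reads over the stage 4 embryos and then 4.02 ± 1.67 CPM at stage 5 (SD, n = 9), and skl 3 reads and 2.32 ± 0.995 CPM. The inhibitor gene Diap1 fell by 0.40 (SE 0.12), from 132 ± 23.2 to 99.6 ± 22.8 CPM (SD, n = 5 and 9).

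**Figure D4:**
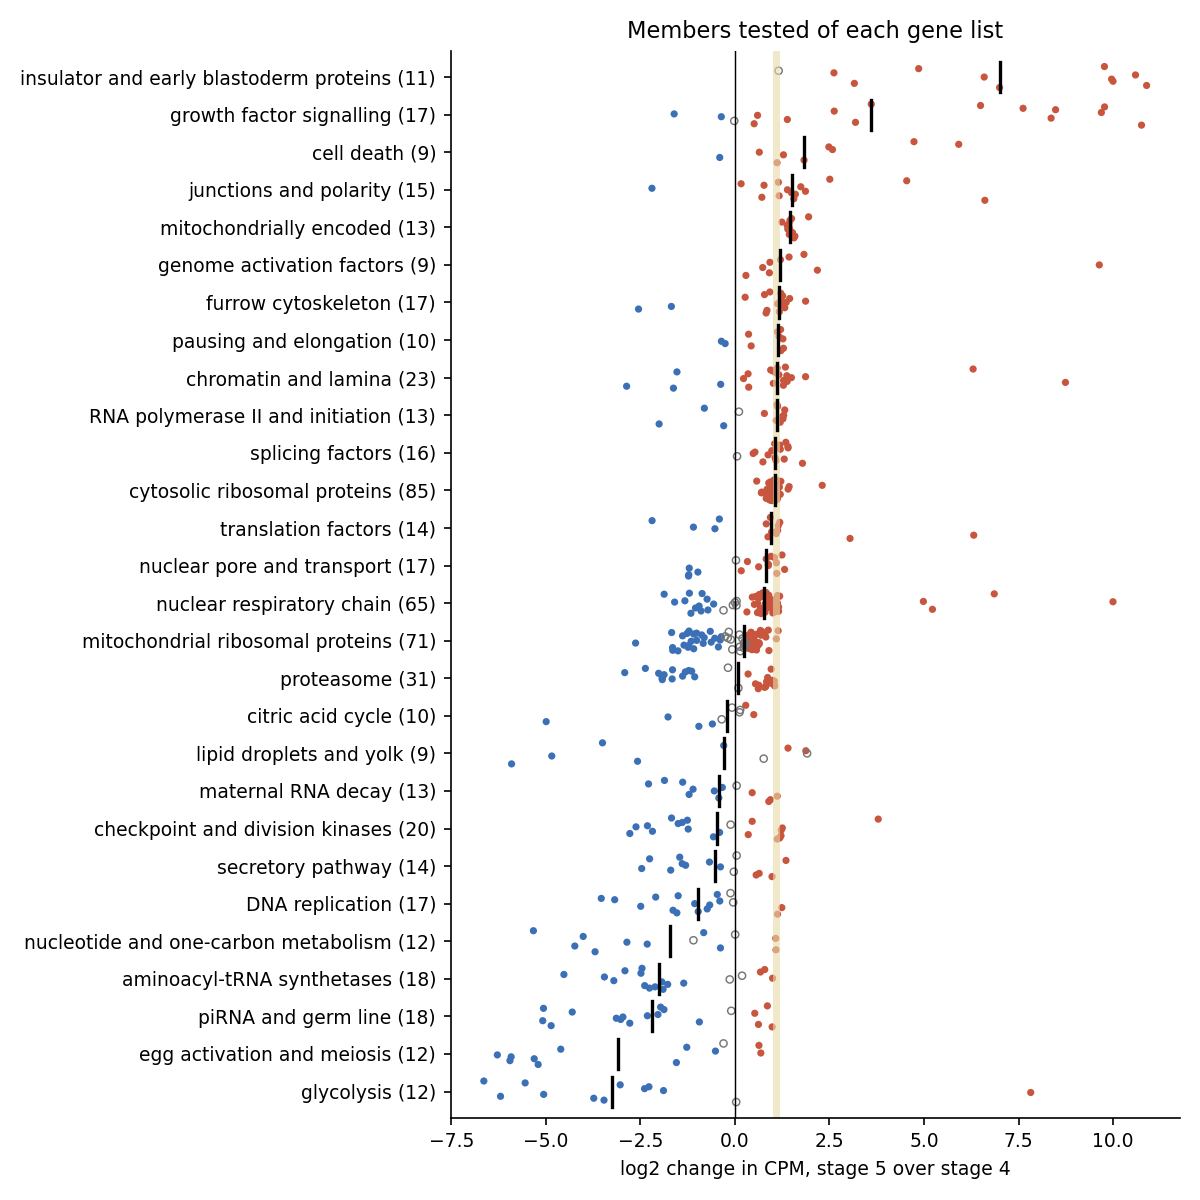
Log2 change from stage 4 to stage 5 (x axis) of every tested member of each gene list with at least 9 tested members (number in brackets), one point per gene, red for a called rise, blue for a called fall, open for no call, with a black bar at the list median and a band at 1.0 to 1.2. Lists of the expression machinery gather at the band, blastoderm and signalling lists reach far to the right, and glycolysis, egg activation, piRNA and tRNA synthetase lists lie to the left.

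On the side of losses, 579 genes with at least 10 CPM at stage 4 fell by more than 3 log2 units. Together they held 84120 to 107423 CPM of the stage 4 embryos and 5088 to 6570 CPM of those at stage 5. In stage 4 embryos G and H, the embryos with the most sisA, the sum was 90141 and 84120 CPM, against 102571 to 107423 in B, C and D. These genes were chosen by their fall, so the sums describe it and do not test it. At stage 15, 121 of the 579 were at or above their stage 4 level.

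The largest falls left almost no RNA. CG14545 (FBgn0040602, 3R 25850410 to 25851291, minus strand) had 67.1 to 125 CPM in the stage 4 embryos and at most 0.597 at stage 5, where 5 of 9 embryos had no read. It fell by 8.92 (SE 0.36, adjusted p = 8.84e-29). Embryos G and H were its lowest at stage 4. The cytochrome P450 gene Cyp6a19 (2R 14877786 to 14879752) had 66.3, 339, 107, 168 and 91.0 CPM at stage 4, the widest scatter of these genes, and at most 1.4 at stage 5. It fell by 8.04 (SE 0.44, adjusted p = 3.32e-21). CG4476 fell by 7.82 (SE 0.44), from 94.5 to 273 CPM at stage 4 to at most 1.12 at stage 5, and CG8180 by 7.29 (SE 0.41), from 502 ± 62.6 to 3.13 ± 1.77 CPM. The rhomboid protease gene stet fell by 6.99 (SE 0.28), from 161 ± 32.0 to 1.23 ± 0.384 CPM. The rest of the 12 were dhd, CG4991, nebu, yin, CG18048, mdu and CG13698, which fell by 6.82 to 7.23. In each of the 12 the stages did not overlap, but the genes were chosen by their fall, so this is no test. Some returned: mdu was at 36.8 and CG13698 at 212 CPM by stage 15.

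The 8 genes with the greatest loss in CPM were of several kinds, RNAs of egg and ovary among them. The chaperone gene Hsp83 lost most of the 8, from 3779 ± 517 to 468 ± 101 CPM, and the mitotic cyclin gene CycB fell from 3591 ± 195 to 1114 ± 141 CPM (SD, n = 5 and 9). The yolk receptor gene yl (FBgn0004649, X 14193214 to 14199958) had 2931, 3145, 3248, 2768 and 2429 CPM in stage 4 embryos B, C, D, G and H and 79.3 to 126 at stage 5, median 98.2. It fell by 4.85 (SE 0.24, adjusted p = 1.04e-24). The translational repressor gene bru1 (2L 12175004 to 12313438) fell from 1568 ± 105 to 28.0 ± 7.17 CPM (SD, n = 5 and 9), by 5.81 (SE 0.29, adjusted p = 7.12e-25). CtsK1 fell by 4.94 (SE 0.42, adjusted p = 1.34e-15), from 1182 to 1928 CPM to 12.9 to 187, where embryo J was highest and the other 8 did not exceed 75.8. The gene smg (3L 8990317 to 8997989) had 2656, 2546, 2681, 3019 and 2749 CPM at stage 4 and 388.5 to 773 at stage 5, median 521, a fall of 2.29 (SE 0.11, adjusted p = 7.27e-25). It went on falling to 193 CPM at stage 6. The other genes of the 8 were dhd and tral.

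Glycolysis was the list with the lowest median, -3.25, with 10 of 12 genes lower and 1 higher, against 30.6% lower among all genes. Gapdh2 (FBgn0001092, X 15868145 to 15869661), glyceraldehyde-3-phosphate dehydrogenase, had 1421, 1248, 1447, 897 and 877 CPM in stage 4 embryos B, C, D, G and H. At stage 5 it ran from 10.4 to 24.2 CPM with a median of 16.1, a fall of 6.20 (SE 0.37, adjusted p = 2.17e-21). Triosephosphate isomerase, Tpi (3R 30132981 to 30134599), fell by 6.64 (SE 0.37, adjusted p = 8.5e-23), from 184 to 313 CPM to 1.19 to 4.46. Pyruvate kinase, PyK, fell by 5.55 (SE 0.26, adjusted p = 1.31e-25), from 525 ± 82.6 to 11.3 ± 3.72 CPM. Gapdh2 and Tpi were lowest in embryos G and H at stage 4, as was CG14545. Lactate dehydrogenase, Ldh (3L 6259105 to 6262694), went the other way, from 4 reads at stage 4 to 25.8 ± 4.05 CPM at stage 5, while aldolase Ald1 was at 261 ± 23.3 and 267 ± 32.1 CPM with no call (adjusted p = 0.845), although the fit on the 14 embryos alone called it lower (-0.199). At stage 15 Gapdh2 was at 89.8, Tpi at 30.0 and Ldh at 293 CPM.

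Other metabolic lists fell in part, where 30.6% of all genes tested were lower. Of 12 genes of nucleotide and one-carbon metabolism 8 fell and 2 rose (list median -1.71). The inosine monophosphate dehydrogenase gene ras (X 10744502 to 10749097) fell by 5.33 (SE 0.16, adjusted p = 1.46e-34) from 214 ± 41.9 to 5.13 ± 1.92 CPM, and the purine synthesis gene Paics by 4.23 (SE 0.15, adjusted p = 1.54e-31). Both rises, of Sam-S and Ctps, were 1.08, close to the common peak. Of 10 citric acid cycle genes 4 fell and 2 rose, and 1 of the rises, of mAcon1 (0.29, adjusted p = 0.0305), was lost in several alternatives. It was 0.05 in the fit on the 14 embryos alone, 0.11 from their own-strand reads and -0.022 with a block. Without stage 4 embryo B, C, D or H or stage 5 embryo I or J it was 0.25 to 0.27. The malate dehydrogenase gene Mdh2 fell by 4.99 (SE 0.26, adjusted p = 7.85e-24). Of 9 lipid droplet and yolk genes 5 fell and 2 rose. The droplet protein genes Jabba (2R 18757074 to 18761082), which anchors histones to droplets, and Lsd-2 (X 15069127 to 15076220), a perilipin, fell by 5.91 (SE 0.35) and 4.84 (SE 0.26, adjusted p = 1.34e-21 and 3.5e-23). Jabba had 1035, 858, 927, 742 and 741 CPM at stage 4 and 11.1 to 17.9 at stage 5. The lipase gene bmm rose by 1.4 ± 0.13 (SE, adjusted p = 3.9e-14), and the second rise, of the yolk protein gene Yp3, was lost without stage 5 embryo B, which had 21.3 CPM against at most 2.68 in the rest.

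**Figure D5:**
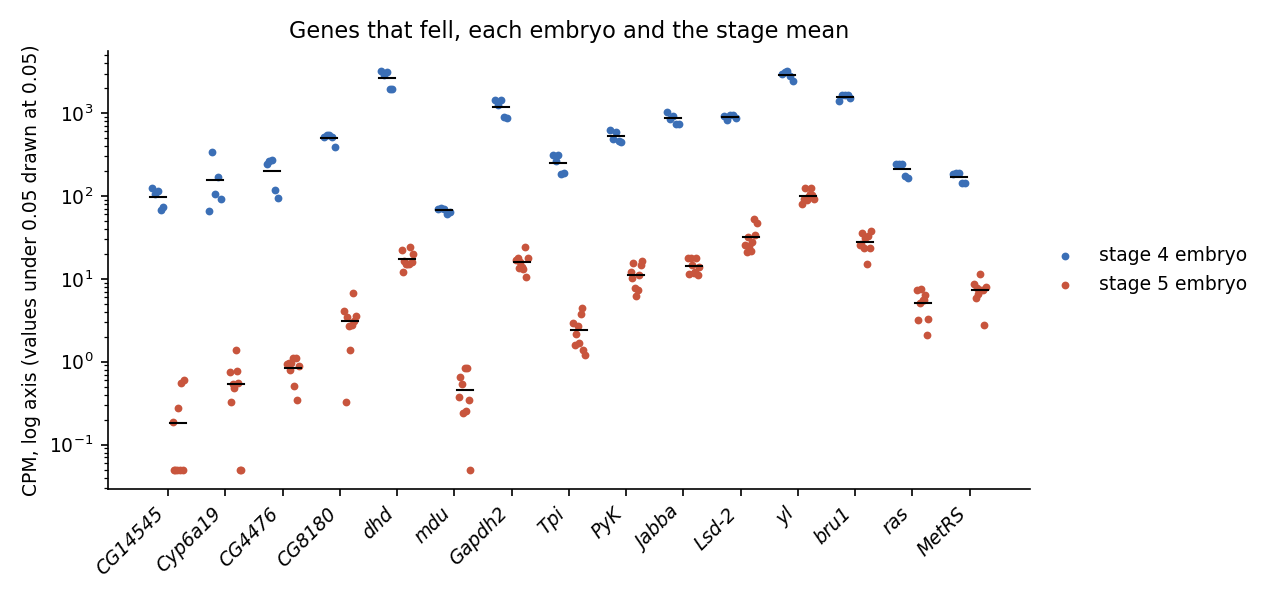
CPM (log axis, values under 0.05 drawn at 0.05) of 15 genes that fell, one point per embryo with a line at the stage mean, stage 4 on the left and stage 5 on the right of each gene: 6 of the largest falls, 3 glycolytic genes, 2 lipid droplet genes, yl, bru1, ras and MetRS. The stages do not overlap in any of the 15, which were chosen for their fall, and Cyp6a19 shows the widest scatter at stage 4.

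Of 18 aminoacyl-tRNA synthetases, which load amino acids onto tRNAs, 13 fell and 3 rose (list median -2.02). Among all genes tested 30.6% were lower and 52.1% higher. MetRS fell by 4.52 (SE 0.16, adjusted p = 3.04e-31) from 170.5 ± 25 to 7.30 ± 2.33 CPM and LeuRS by 3.45 (SE 0.10, adjusted p = 4.94e-35). IleRS rose by 0.99 ± 0.06 (SE, adjusted p = 3.05e-22). MetRS was at 191 CPM by stage 15. Of 14 translation factors 10 rose and 4 fell (list median 0.95). The cap-binding gene eIF4E1 fell by 2.19 (SE 0.09, adjusted p = 6.87e-28), and the helicase gene eIF4A, chosen after its values were seen, rose by 1.19 ± 0.06 (SE, adjusted p = 1.8e-24).

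The proteasome divided by subcomplex, a split noticed after the values were seen. Of 13 subunits of the 20S core, the proteolytic barrel, 12 rose and none fell (list median 0.84). Of 18 subunits of the 19S particle, which binds and unfolds substrates, 14 fell and 3 rose (list median -1.52). Over all genes tested the shares were 52.1% higher and 30.6% lower. The core gene Prosalpha6 had 142, 128, 136, 159 and 151 CPM at stage 4 and 251 to 336 at stage 5, a rise of 1.05 ± 0.10 (SE, adjusted p = 1.67e-14). The lid gene Rpn8 had 160, 132, 141, 137 and 122 CPM at stage 4 and 13.9 to 26.5 at stage 5, a fall of 2.91 (SE 0.10, adjusted p = 1.23e-32). The order had turned by stage 10, with 55.3 CPM for Prosalpha6 and 88.3 for Rpn8. The median over all 31 genes was 0.09, and -0.14 in the fit on the 14 embryos alone.

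Genes of replication and of the cell cycle checkpoint fell more often than they rose, where 30.6% of all genes tested were lower. Of 17 replication genes 13 fell and 2 rose (list median -0.97). The large subunit of ribonucleotide reductase, RnrL (2L 10325026 to 10327943), fell by 3.53 (SE 0.14, adjusted p = 1.16e-28) from 575 ± 40.5 to 49.7 ± 14.9 CPM and the polymerase gene PolE1 by 3.18 (SE 0.18, adjusted p = 4.64e-22). Cdc6 and Mcm7 rose by 1.12 and 1.24. Of 20 checkpoint and division kinase genes 11 fell and 8 rose (list median -0.49). The checkpoint kinase gene grp, fly Chk1 (2L 16680054 to 16699926), had 502, 466, 538, 534 and 525 CPM at stage 4 and 65.5 to 108 at stage 5, a fall of 2.62 (SE 0.09, adjusted p = 8.71e-31). The Cdk1-inhibiting kinase gene Myt1 fell by 2.78 (SE 0.13, adjusted p = 6.07e-26). The gene trbl, tribbles (3L 20396288 to 20401609), whose protein promotes destruction of the String phosphatase, rose by 3.79 ± 0.11 (SE, adjusted p = 1.56e-35), from 43.1 to 49.2 CPM to 513 to 705.

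Of 12 genes of egg activation and meiosis 9 fell and 2 rose (list median -3.08), where 30.6% of all genes tested were lower. The Polo-inhibiting gene mtrm (3L 8413012 to 8414103) fell by 6.28 (SE 0.34, adjusted p = 2.65e-23) from 406 to 442 CPM to 2.98 to 8.36, and the maternal tubulin gene alphaTub67C by 5.95 (SE 0.33, adjusted p = 1.37e-22). Of 18 piRNA and germ line genes 13 fell and 4 rose (list median -2.18). The germ line helicase gene vas (2L 15061656 to 15074311) had 255, 313, 356, 178 and 168 CPM at stage 4 and 5.20 to 10.1 at stage 5, a fall of 5.06 (SE 0.24, adjusted p = 5.58e-26). The piRNA cluster gene del fell by 5.08 (SE 0.26, adjusted p = 2.13e-24), and AGO3, a slicer of the piRNA pathway, rose by 0.98 ± 0.17 (SE, adjusted p = 6.48e-07). In a whole embryo, RNA lost outside the germ cells, fewer germ cells among all cells and less RNA per germ cell cannot be told apart. Of 13 genes of maternal RNA decay 8 fell and 4 rose (list median -0.43). The deadenylase gene twin fell by 1.86 (SE 0.07, adjusted p = 5.19e-30), and the decapping factor gene Patr-1 rose by 1.12 ± 0.07 (SE, adjusted p = 2.06e-21).

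Of all genes tested, 52.1% were higher and 30.6% lower, the background for the next lists. Secretory genes fell in 8 of 14 cases and rose in 4, with a median of -0.53. The exocyst gene Sec15 fell by 2.46 (SE 0.09), with 66.5% of its stage 5 reads on its own strand, and the coat gene betaCOP by 2.26 (SE 0.12, adjusted p = 1.33e-23). Of 17 nuclear pore and transport genes 12 rose and 4 fell (list median 0.83). The nuclear-encoded respiratory chain rose in 48 of 65 tested genes and fell in 12, with a median of 0.76. All 13 mitochondrially encoded genes rose (list median 1.46), and stage 5 embryo B was lowest for mt:CoII at 1514 CPM, where the others had 2309 to 3108. Of 71 mitochondrial ribosomal protein genes 33 rose and 25 fell (list median 0.24), near the shares over all genes tested. Of the 4 genes of histone message processing, mxc fell by 2.25 (SE 0.13, adjusted p = 9.81e-22), Lsm10 by 0.72 and Slbp rose by 0.63 ± 0.12, while Lsm11 had 10.4 ± 2.16 and 9.33 ± 3.17 CPM.

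Follicle cell and eggshell markers were low, and the list of differentiated cells held 1 neuronal gene that was not. Of 12 follicle cell and eggshell genes 11 had reads in the 14 embryos and 11 were under 1 CPM on average in both stages, and their summed level was 0.504 to 4.44 CPM at stage 4 and 0.645 to 7.60 at stage 5. Of 16 genes of differentiated muscle, neuron and cuticle, 13 were tested, 7 rose and none fell. The share that rose was near the 52.1% of all genes tested. The list median of 2.23 was 6.68 in the fit on the 14 embryos alone and 10.4 from their own-strand reads, fits that tested fewer genes. Their sum was 1.15 to 4.59 CPM at stage 4 and 130 to 308 at stage 5, most of it from the neuronal RNA-binding protein gene elav, at 203 ± 65.9 CPM (SD, n = 9). The synaptic genes Syt1, brp and nSyb, also called, had 1.76, 1.19 and 2.26 CPM at stage 5, with 24.6%, 15.4% and 31.2% of their reads on their own strand.

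Spread between embryos was larger at stage 5 than at stage 4. Over the 4915 genes of at least 10 CPM in both stages, the median coefficient of variation was 8.25% at stage 4 and 13.3% at stage 5. Most stage 4 embryos were also sequenced more deeply, and the part of depth in this was not tested. Within stage 5, bnk (3R 31193362 to 31194389), a regulator of the cellularization furrow chosen after its values were seen, had 207 and 268.5 CPM in embryos H and J and 52 to 134 in the other 7. In the same embryos H and J the X-linked gains and Traf4 were among the lowest values, and D and CG43725 among the 3 highest.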

How the data were processed

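Total RNA of single embryos was depleted of ribosomal RNA and sequenced as paired ends, per the labels' protocols. The deposited files hold counts of reads per gene, unstranded and for each strand, made by the authors with STAR 2.5.3a on dm6 per the submitters' processing notes. The main test used the unstranded counts, without the 4 summary entries. All 14 embryos had 96.8% to 97.5% of strand-separated reads on the genes' own strand. In stages 13 and 15, embryos lettered A, B, F or G had only 50.2% to 50.5% there. Every other embryo of the series had at least 96.7%. The embryos near 50% entered the main fit's filter and shared spread, and the means of their stages. Fits on the 14 embryos alone left them out together with all other later embryos, so their own part was not tested. Of 17481 gene identifiers, 17343 matched Ensembl release 115 (BDGP 6.54, dm6 coordinates). Antisense and overlapping genes cannot be told apart in the unstranded counts.

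Genes were kept by edgeR's filterByExpr over all 54 embryos, which share the estimate of spread, and tested with edgeR 4.0.16 (R 4.3.3) by the quasi-likelihood test, with TMM factors and Benjamini-Hochberg adjustment over 9783 genes at 0.05. A change of over 2-fold was tested with glmTreat. SE is the log2 change over the root of its F. On simulated data with known changes, the main fit, with TMM factors over all embryos, put unchanged genes slightly below 0. It called some of them, though none over 2-fold, while DESeq2's size factors and the 14 embryos alone centred them at 0. The main fit called 61 of 98 genes simulated at 2-fold and 67 of 97 at 4-fold. The simulation changed few genes, as many up as down, so it cannot show how the scaling behaves where most genes moved. Small changes are limited by the scaling, and how far larger ones depend on it was not tested. Single measures were compared by exact permutation of embryos (scipy 1.17.1). Alternatives were DESeq2 1.42.0, its size factors, no filter, the 14 embryos alone, own-strand reads, the title letter as a block, and leaving out each embryo. The labels do not say that embryos came from separate crosses, so the spread behind the p-values may not cover differences between crosses. The technical part of that spread was not tested. Genome sequence was not used here, so promoter motifs were not analysed.

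Members and lists were chosen with earlier results of these data known. Genes named are the 12 largest rises and 12 largest falls called over 2-fold with at least 10 CPM in the higher stage, the 8 highest at stage 5 with at most 3 reads at stage 4, the 8 largest losses in CPM, all outside the patterning genes, and up to 4 called members of each list. Other genes named in the text were chosen after their values were seen. Of the listed names 18 did not match an identifier and were not used here.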

Additional observations from a re-analysis of the deposited data

Results flagged for a closer look

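Single embryos lay far from the others of their stage in 20 of 232 groups of values tested. The rule would flag about 1 in 20 among independent, unselected values. The test took the genes named in the report in stages where they averaged at least 1 CPM. Many of these genes were chosen for their values, and values of 1 embryo are not independent, so that rate is no chance level here. Stage 5 embryo B was the far one in 7 of them: it had 344 CPM of AGO3 (the other 8 had 528 to 658), 28.0 of Toll-6, 21.3 of Yp3, 239 of Z600, 13.5 of alphaTub67C (others 5.84 to 9.60), 461 of chic (others 335 to 393) and 1514 of mt:CoII. Stage 4 embryo B was also low in AGO3, with 215 CPM against 294 to 319. Stage 5 embryo I was the highest in Inx3 (1289 CPM), Nrt (5213, others 3670 to 4433) and His3.3B (1471, others 1177 to 1313). Stage 5 embryo J was highest in CtsK1 (187 CPM) and D (585). Stage 4 embryo H was lowest in CG8180 (393 CPM, others 517 to 547), CycT (280 CPM, others 344 to 370) and kst (138 CPM, others 235.5 to 273). Single values far from the rest were 6.40 CPM of CG4991 in stage 5 embryo D (others 1.68 to 3.28), 42.9 of Tbp in stage 5 embryo C (others 33.3 to 37.8), 1189 of lncRNA:Hsromega in stage 5 embryo F and 962 of wech in stage 4 embryo G.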

How the results depend on the processing

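Genes over 2-fold numbered 1430 higher and 2098 lower in the fit on the 14 embryos alone, against 3048 and 1923. Both fits that changed a further choice used the 14 embryos too. Reads on the genes' own strand gave 1198 higher and 2100 lower, and the title letter as a replicate block 1424 and 2111. The 3 fits tested 7446, 7233 and 7446 genes in place of 9783. Among genes of at least 10 CPM the count was 1108, and among genes with at least 80% of stage 5 reads on their own strand 1997; both limits were chosen after seeing the data. Genes higher at any size numbered 3424 on the 14 embryos, 3219 from their own-strand reads and 3378 with the block, against 5096. The median change of all genes, 0.72, was 0.85 with DESeq2's size factors, 0.87 with DESeq2's test and 1.14 without the filter. It was 0.0855 on the 14 embryos alone, 0.00921 from their own-strand reads and 0.0812 with the block. The other counts lay within 1.5 times the reported ones. Leaving out 1 embryo gave 4988 to 5081 genes higher and 2964 to 3017 lower, 2907 to 3080 over 2-fold higher and 1897 to 1954 lower, and medians of 0.68 to 0.73. The stage differences in reads outside genes, mitochondrial reads and genes detected were 4.35 to 4.72 points, 2.02 to 2.24 points and 2450 to 2600 genes, all with the same side of the threshold. That in reads of genes near 0 was 1.09 to 1.13 points, or 2.10 with the limit at 10 reads. Letters share only a name: same-letter embryos correlated at -0.0241 to 0.0999 in their deviations. Of the named genes, mAcon1 changed sign with the block (-0.022), and nullo, not called at 1.16, was called without stage 4 embryo H (2.53); Ald1, not called at 0.03, was called lower on the 14 embryos alone (-0.199) and with the block (-0.331). Calls for 4 genes, Nelf-A, kay, Yp3 and mAcon1, were lost in at least 1 alternative. Folds of genes with a few stage 4 reads moved with single stage 4 embryos. Promoter motifs were not run.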
